A study of Macaca mulatta with 13 samples.

Results

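The glycolysis and lactate genes are 32 genes chosen by name, not by their levels, and were followed here in single colon leukocytes of the rhesus macaque (Macaca mulatta). Of the 32 genes, 30 were found by symbol in the deposited feature list and PFKP was found by its gene ID through a table of gene names. PKM, which encodes pyruvate kinase, was not matched, so 31 genes with 34 of the 34628 gene IDs were measured. PGAM1, LDHB and BNIP3 have 2 IDs each. Reads of such near-identical copies may be split between them, so these genes are uncertain, and the table of gene names calls the PGAM1 copy ENSMMUG00000010554 PGAM4.

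The study, by its title, concerns how donor T cells settle in the gut during graft-versus-host disease (GVHD), in which transplanted immune cells attack the recipient. The labels name 13 libraries of UMI counts, where a UMI tags 1 captured RNA molecule. They are 4 host fractions and 2 donor fractions of transplanted animals, 3 samples of host and donor cells combined from animals with GVHD, and 4 samples from healthy controls without a transplant. All cells came from thawed tissue, 4 colon samples of transplanted and 4 of control animals, and were sorted as viable and positive for the leukocyte protein CD45. They also lacked the CD45 stain marked IVas. Host was parted from donor by the macaque MHC class I molecule MAMU-A001, by sorting in 2 of the GVHD samples and by computation in 2 others. The transplants were of blood-forming cells from another animal (allo-HCT). Genotype, age and drugs are not in the labels, and several libraries can come from 1 animal.

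Glycolysis turns glucose into pyruvate in the cytosol, and lymphocytes raise it when they are activated and divide. The glucose carriers SLC2A1 and SLC2A3 bring in glucose, HK1 and HK2 trap it, and phosphofructokinase (PFKL, PFKM, PFKP) commits it to the pathway under the control of PFKFB3 and PFKFB4. GAPDH, PGK1, PGAM1 and the enolases ENO1 and ENO2 form its later steps. LDHA and LDHB convert pyruvate and lactate into each other, SLC16A1 and SLC16A3 carry lactate across the membrane, and the kinases PDK1 and PDK3 hold pyruvate back from the mitochondria. HIF1A and MYC are transcription factors that drive many of these genes, while VHL and EGLN3 take part in the breakdown of HIF1A. BNIP3, a HIF1A target, acts in the removal of mitochondria. The phosphoglucomutases PGM1 and PGM2 link the pathway to glycogen and nucleosides.

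Barcodes carry a number between 1 and 13 at their end, used here as the name of the library. No source used here ties these numbers to the labels. Libraries 4 and 6 share 5323 barcodes, whereas other pairs of their barcode set share at most 55, so library 4 (39 kept cells) was left out. This leaves 20567 of 20606 cells, from 29 to 2858 per library, with a median of 2814 to 5873 UMIs per cell. Libraries 1 to 7 draw on one set of barcodes and 8 to 13 on another. They are called barcode sets 1 and 2, since the labels name kit versions 2 and 3 without saying which library each made.

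Cells were placed by marker RNA, using no member of the gene list. T cells had at least 3 UMIs of CD3D, CD3E and CD3G, B cells at least 2 of MS4A1 and CD79A, and plasma cells, the antibody-secreting cells, at least 1% of their UMIs from JCHAIN. Cells with at least 1 UMI of MKI67 or TOP2A were counted as dividing. This gave 10605 non-dividing T cells, 629 dividing T cells, 3780 B cells (823 of them dividing) and 1241 plasma cells. Another 2549 cells met more than 1 gate and 1763 met none, and both were set aside. Of the non-dividing T cells, 3414 had CD8A without CD4 and 1804 had CD4 without CD8A. The 7 T cell markers, which include the gating genes, summed to a median of 4220 CPM (counts per 1000000 UMIs) in non-dividing T cells, 111 CPM in B cells and 37.1 CPM in plasma cells. The 7 B cell markers summed to 3272 CPM in B cells and 39.5 CPM in non-dividing T cells, and the 7 plasma cell markers to 68177, 1165 and 260 CPM in plasma, B and T cells. The 7 markers of division, gating genes included, had medians of 2460 CPM in dividing and 76.1 CPM in non-dividing T cells. In B cells these were 4039 and 122 CPM. They reached 293 CPM in a library of non-dividing T cells, 562 CPM in one of CD8A T cells and 963 CPM in one of non-dividing B cells. The split is thus not clean in every library.

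Classes were compared inside libraries, on UMI sums per library and class with the library as a block, by edgeR's quasi-likelihood test with Benjamini-Hochberg adjustment over all genes tested. Libraries with at least 20 cells of both classes entered. A gene is called higher or lower at an adjusted p under 0.05, and log2 fold changes use TMM scaling, which sets the bulk of genes near 0. As libraries may share animals, p measures the spread between libraries. These are 3′ counts, so levels are compared between cells and never between genes.

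Non-dividing T cells carried the members at a higher share of their RNA than plasma cells. All members together made up a median of 0.498% of the UMIs of non-dividing T cells over 11 libraries (0.369% to 0.897%). They were 0.699% of dividing T cells (8 libraries, 0.467% to 1.16%), 0.312% of non-dividing B cells (6 libraries, 0.268% to 0.565%) and 0.510% of dividing B cells (4 libraries, 0.371% to 0.718%). In plasma cells they were 0.0892% (7 libraries, 0.0531% to 0.158%), and no plasma sum reached the lowest T cell sum. These shares are of all UMIs, and plasma cells had a median of 11003 UMIs each, against 2866 in non-dividing T cells. The shares are not TMM-scaled. TMM factors multiply the library totals, and in plasma against T cells they were 0.498 to 0.731 for plasma and 1.16 to 1.91 for T cells. Such scaling narrows the gap, so the separation of the sums is stated for unscaled shares alone.

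**Figure D1:**
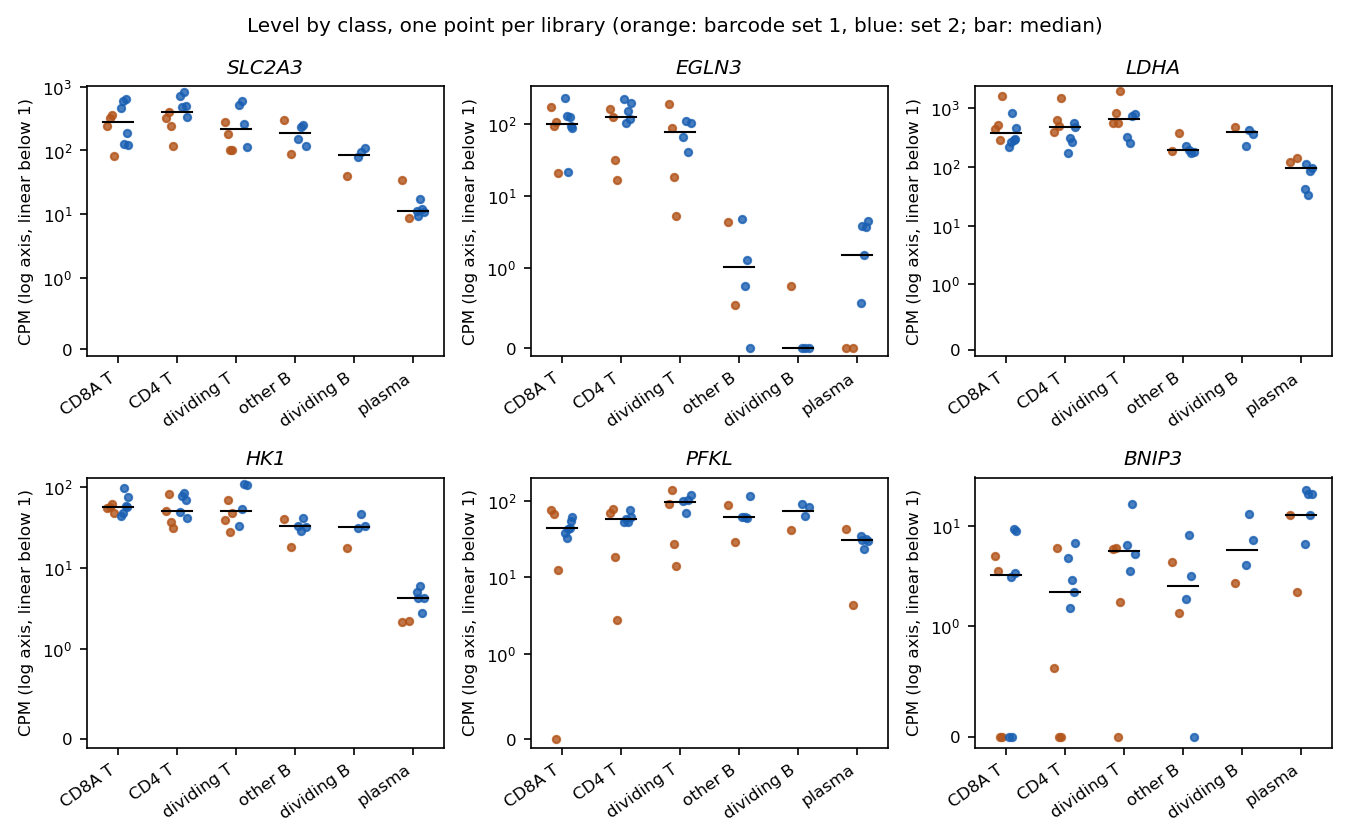
Levels of 6 members in CPM (a log axis that is linear below 1) in each cell class, with 1 point per library of at least 20 such cells, orange for barcode set 1, blue for set 2 and a bar at the median; BNIP3 is the ID ENSMMUG00000022445. EGLN3 lies below 5 CPM in every B and plasma cell library and above 5 CPM in every T cell library, and the plasma cell libraries lie lowest for SLC2A3 and HK1 and highest at the median for BNIP3.

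B cells had less RNA than T cells of several members, among them 4 of upper glycolysis, and more of the lactate carrier SLC16A1. The B cells here include dividing ones, while the T cells are the non-dividing ones alone. Over 6 libraries, 11 of 30 member IDs tested (29 genes) were lower in B cells, where 20% of the 8799 genes tested were lower. Only SLC16A1 was higher, where 18% of all genes were (38% in either direction). By role, 4 of 8 IDs of upper glycolysis were lower (HK1, GPI, ALDOA and TPI1), and 1 of 6 of lower glycolysis (ENO2). The median log2 fold change was -0.40 over the member IDs tested and -0.0024 over all genes. HK2, PFKFB4 and the second IDs of LDHB and BNIP3 were too low to test.

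The widest gap was in EGLN3 (ENSMMUG00000000040), one of the prolyl hydroxylases that take part in the breakdown of HIF1A. Its level was 15.6, 113 and 210 CPM (lowest, median and highest) over 11 libraries of non-dividing T cells. In B cells it was 3.60, 0.637, 3.82, 0.479, 0.796 and 0 CPM in libraries 2, 3, 8, 9, 11 and 12. No B cell library came near the lowest T cell library. The log2 fold change was -6.57 (SE 0.28, edgeR adjusted p = 6.39e-09), lower in 6 of 6 libraries. Of non-dividing T cells 26.0% held a UMI of EGLN3 (exact 95% interval 25.1 to 26.8) against 0.406% of non-dividing B cells (0.210 to 0.708), at median depths of 2866 and 3088 UMIs per cell. After thinning to 1500 UMIs per cell the shares were 14.6% and 0.237%. These intervals cover counting error only.

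The glucose carrier SLC2A3 (ENSMMUG00000046124) was at 67.7, 158 and 288 CPM (lowest, median and highest) in B cells and at 123, 215 and 698 CPM in non-dividing T cells. The ranges overlapped across libraries, but B cells were below T cells inside each. Its log2 fold change was -1.56 (SE 0.20, edgeR adjusted p = 5.3e-05), lower in 6 of 6 libraries. HK1, which traps glucose in the cell, was lower in 6 of 6 libraries at -0.94 (SE 0.15), with 17.7 to 37.8 CPM in B and 30.2 to 69.6 CPM in T cells. In the upper pathway, ALDOA was at -0.56 (SE 0.11, lower in 6 of 6 libraries), GPI at -0.45 and TPI1 at -0.39. GPI was not called without library 8, 9 or 11, nor TPI1 without library 2, 8 or 11.

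PDK1, ENO2, MYC, SLC16A3 and PGM2 were lower in B cells as well. PDK1, which holds pyruvate dehydrogenase off, was at -1.14 (SE 0.21, lower in 6 of 6 libraries), and ENO2 at -0.97 (SE 0.22, lower in 6 of 6). MYC was at -0.91 (SE 0.22, lower in 5 of 6) and the lactate exporter SLC16A3 at -0.75 (SE 0.21, lower in 5 of 6), not called without library 11 (-0.69, edgeR adjusted p = 0.057). PGM2 was at -0.47 and was not called without library 3, 8, 9 or 11. SLC16A1 (ENSMMUG00000006171) stood out upwards, at 14.4, 19.0, 9.17, 19.2, 11.9 and 0 CPM in the B cells of libraries 2, 3, 8, 9, 11 and 12, against a median of 2.74 CPM (0 to 13.5) in non-dividing T cells. Its log2 fold change was 1.96 (SE 0.44, edgeR adjusted p = 0.00385), higher in 5 of 6 libraries. The B cells of library 12, with no UMI, are 41 cells.

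GAPDH and LDHA lay near the threshold. GAPDH was at -0.51 (SE 0.21, edgeR adjusted p = 0.073) and LDHA at -0.41 (SE 0.18, adjusted p = 0.0898). With non-dividing B cells alone they were called, at -0.72 and -0.60, and 13 members were lower. Without library 3, where 439 of 1450 B cells were dividing, they were also called, at -0.68 and -0.52. Among alternatives other than leaving out 1 library, GAPDH gained a call in 5 and kept its result in 10. LDHA gained a call in 4 and kept its result in 11. The part of dividing cells in this was not tested. HIF1A was at -0.41 (SE 0.21, adjusted p = 0.160) and PFKL at 0.34 (SE 0.15, adjusted p = 0.0857, higher in 6 of 6 libraries). LDHB (ENSMMUG00000002679) was at -0.18 (SE 0.20). The 11 myeloid markers summed to 14.4 to 262 CPM in B cells, with 2 to 8 of them at 0 in a library. In non-dividing T cells they summed to 1761 CPM in library 12, with 1 at 0. The other libraries compared held 5.93 to 15.8 CPM in these T cells, with 3 to 8 at 0. CST3, a gene of myeloid cells, was higher in B cells at 2.26 (SE 0.77). The part of these markers in these values was not tested.

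**Figure D2:**
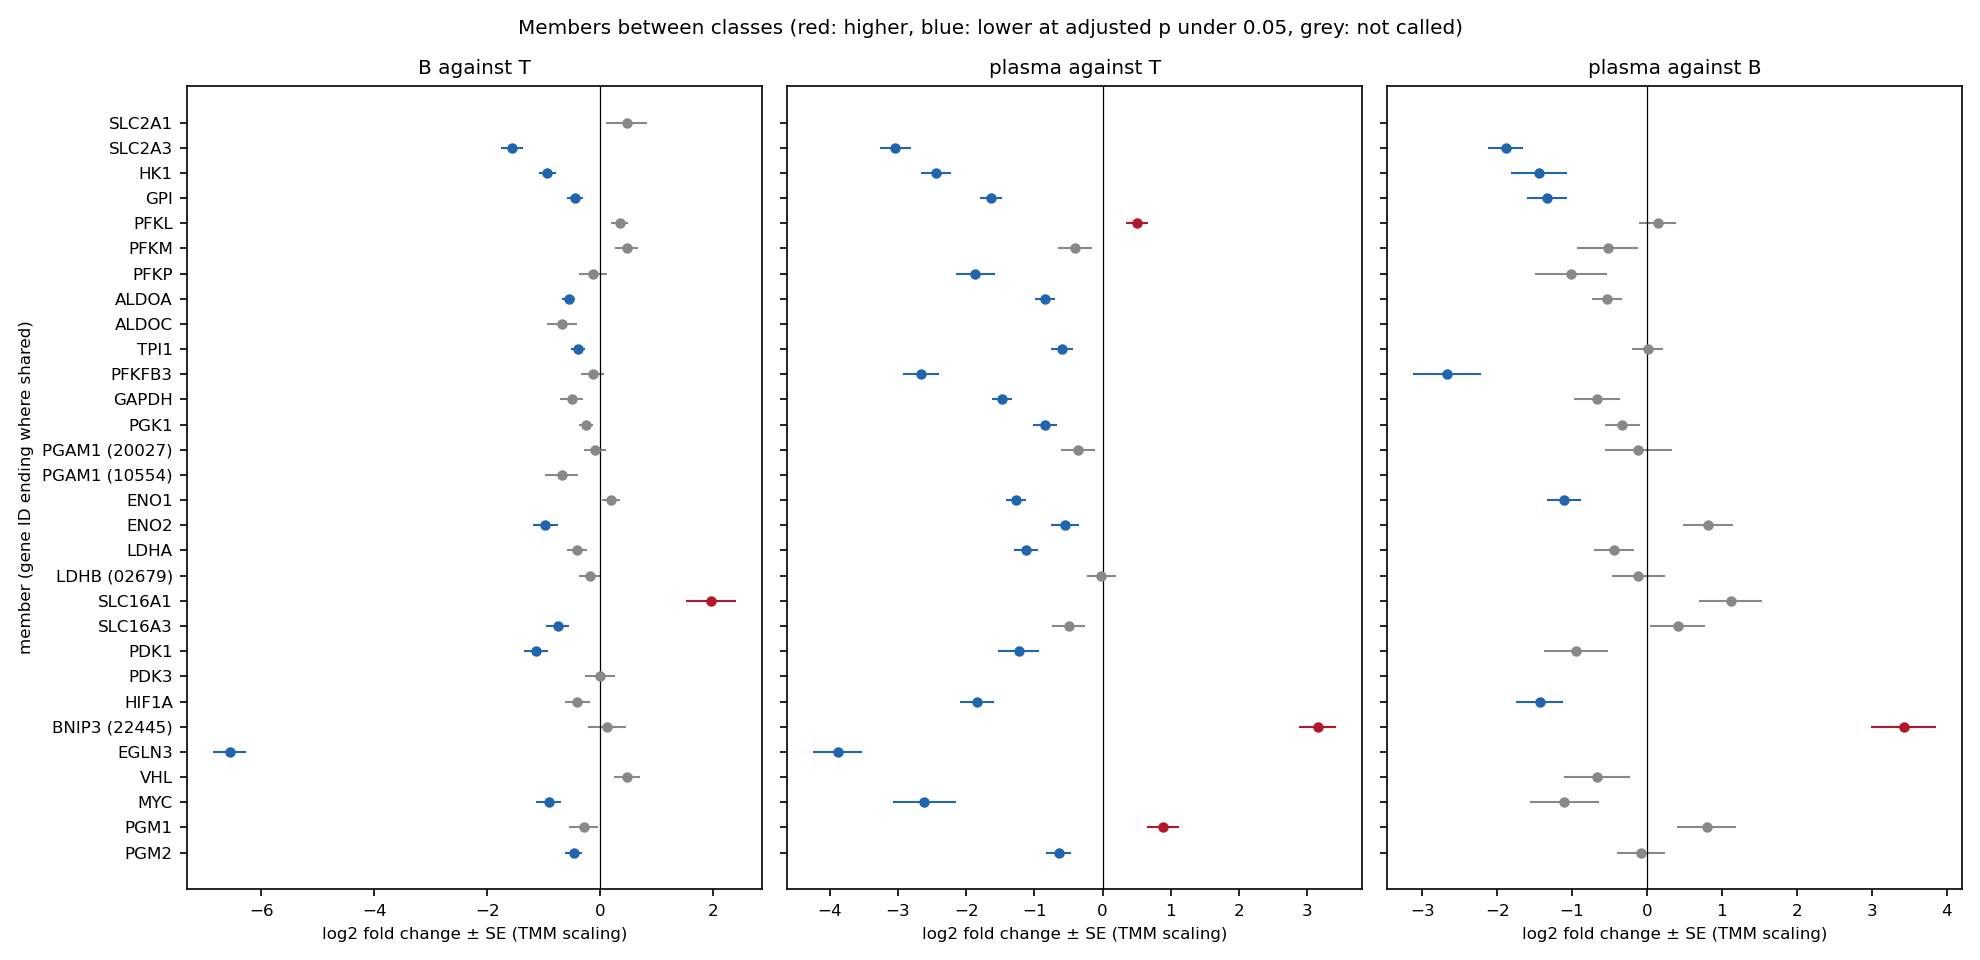
Log2 fold change of each member ID tested, with its standard error, for B against T cells (6 libraries), plasma against T cells (7 libraries) and plasma against B cells (4 libraries), red where higher and blue where lower at an adjusted p under 0.05. B cells include dividing ones, and T cells are the non-dividing ones alone. EGLN3 lies farthest below 0 against T cells, at -6.57 in B cells and -3.88 in plasma cells, and BNIP3 farthest above 0 in plasma cells, at 3.15 and 3.43.

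Plasma cells had less RNA than T cells of most called members, and more of BNIP3. Against non-dividing T cells of the same 7 libraries, 17 of 24 members tested were lower and 3 higher, where 32.3% of the 6432 genes tested were lower and 26.6% higher (58.9% in either direction). By role, 5 of 7 IDs of upper glycolysis and 4 of 5 of lower glycolysis were lower. The member median was -0.98 and that of all genes -0.11. Under scaling by library totals the median of all genes moved to -1.52 and that of members to -2.36, and PFKL and PGM1, called higher at 0.51 (SE 0.16) and 0.89 (SE 0.23), turned to -0.89 and -0.52. Directions below are therefore relative to the bulk of genes in plasma cells. In CPM PFKL was at a median of 30.3 in plasma and 49.8 in T cells, and PGM1 at 10.9 and 14.2.

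SLC2A3 was at 34.3 and 8.72 CPM in the plasma cells of libraries 2 and 5, and at 11.2, 9.51, 17.2, 12.3 and 10.8 CPM in libraries 8, 10, 11, 12 and 13, in that order. Before TMM scaling its highest plasma level lay below its lowest T cell level of 123 CPM. The log2 fold change was -3.04 (SE 0.22, edgeR adjusted p = 1.35e-08), lower in 7 of 7 libraries. EGLN3 was at -3.88 (SE 0.35), PFKFB3, which makes the activator of phosphofructokinase, at -2.66 (SE 0.26) and HK1 at -2.44 (SE 0.22), each lower in 7 of 7 libraries. MYC was at -2.61 (SE 0.46, lower in 6 of 7), PFKP at -1.86 and HIF1A at -1.84, the latter pair lower in 7 of 7.

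Several enzymes of the main pathway were lower, while PFKL was called higher as given above and PFKM (-0.40) and PGAM1 (-0.36) were not called. GPI was at -1.64 (SE 0.16), GAPDH at -1.47 (SE 0.15), ENO1 at -1.27 (SE 0.15), LDHA at -1.12 (SE 0.17), PGK1 at -0.84, ALDOA at -0.84 and TPI1 at -0.60. Of these enzymes, all but TPI1 were lower in 7 of 7 libraries. LDHA was at 120 and 142 CPM in plasma cells of libraries 2 and 5 and between 33.7 and 113 CPM in the other 5, below its lowest T cell level of 217 CPM. These CPM are not TMM-scaled, and the scaling narrows this gap across libraries. PDK1 was at -1.23, PGM2 at -0.64 and ENO2 at -0.56. ENO2 was not called without library 11, 12 or 13 (edgeR adjusted p from 0.0754 to 0.102). TPI1 was not called in barcode set 2 alone (-0.31, adjusted p = 0.116). LDHB was at -0.019 (SE 0.21). Of 9 epithelial and stromal markers, KRT18 was higher in plasma cells at 5.33 (SE 0.38), with 4 of the 9 at 0 in plasma cells and a summed level of 38.6 to 87.0 CPM in them and 45.8 to 212 CPM in T cells. The 11 myeloid markers summed to 1010 and 1761 CPM in the T cells of libraries 5 and 12, and to 996 CPM in the plasma cells of library 12. In the other libraries compared they summed to at most 18.1 CPM in T cells, and in other plasma cells to at most 15.3 CPM. The part of KRT18 and of the myeloid markers in these values was not tested.

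BNIP3 (ENSMMUG00000022445) was at 12.9, 2.18, 6.71, 23.3, 20.9, 12.97 and 21.1 CPM in the plasma cells of libraries 2, 5, 8, 10, 11, 12 and 13. Over 11 libraries of non-dividing T cells it was at 0, 3.03 and 7.67 CPM (lowest, median and highest), so 5 of 7 plasma cell libraries lay above every T cell library. Its log2 fold change was 3.15 (SE 0.27, edgeR adjusted p = 7.53e-08), higher in 7 of 7 libraries. It was called higher under every alternative that tested it in this comparison. Of plasma cells 14.6% held a UMI of BNIP3 and of non-dividing T cells 1.38%, and 2.26% and 0.660% after thinning to 1500 UMIs. Against B cells, over 4 libraries, it was at 3.43 (SE 0.43, edgeR adjusted p = 3.85e-05), higher in 4 of 4. Its other ID, ENSMMUG00000058508, had 4 UMIs in all kept cells.

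Against B cells, the lineage they come from, plasma cells had less of SLC2A3, PFKFB3, HK1, HIF1A, GPI and ENO1 and more BNIP3. Of 25 members tested 6 were lower and 1 higher, where 17.4% of the 6456 genes tested were lower and 17.8% higher (35.3% in either direction), with a median of -0.52 over members and -0.094 over all genes. The 7 members called are no larger a share of those tested than the genes called among all. PFKFB3 was at -2.67 (SE 0.45), SLC2A3 at -1.89 (SE 0.23), HK1 at -1.44 (SE 0.38), HIF1A at -1.43 (SE 0.32), GPI at -1.34 (SE 0.27) and ENO1 at -1.11 (SE 0.22), each lower in 4 of 4 libraries. SLC2A3 was at 34.3, 11.2, 17.2 and 12.3 CPM in the plasma cells of libraries 2, 8, 11 and 12 and at 288, 137, 196 and 112 CPM in their B cells. TPI1 was at 0.013 (SE 0.21) and LDHA at -0.44 (SE 0.26, edgeR adjusted p = 0.218). GAPDH was at -0.67 (adjusted p = 0.103), MYC at -1.11 (adjusted p = 0.0777) and LDHB at -0.12, none past the threshold. No call held when cells of more than 1 gate were kept, a fit over 9 libraries in which BNIP3 was at 0.64 (edgeR adjusted p = 0.121). In that fit cells that met both gates were summed into both classes, so it cannot show whether the calls hold. By library totals 21 members were lower, and the median of all genes was -1.63. Of the markers of other cells, KRT18 (3.71, SE 0.46) and PECAM1 (1.65, SE 0.28) were higher in plasma cells and CST3 lower (-3.04, SE 0.82), and their part in these values was not tested.

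Dividing B cells had more RNA of ENO1, GAPDH, PFKP and LDHA than other B cells, and less of SLC2A3, PFKFB3, HIF1A and ENO2. Over 4 libraries (3, 8, 9 and 11), 4 of 27 member IDs tested were higher and 4 lower in dividing than in other B cells, where 16.8% of the 7971 genes tested were higher and 16.4% lower (33.1% in either direction). The 4 members each way are near those shares. Of 6 IDs of lower glycolysis tested, 2 were higher (ENO1 and GAPDH) and 1 lower (ENO2). The median was 0.13 over members and -0.0059 over all genes. Dividing B cells had a median of 6302 UMIs per cell and the others 3088. Of 11 myeloid markers 2 were tested, and both were lower in dividing B cells, LYZ at -1.77 (SE 0.59) and CD68 at -1.33 (SE 0.38). The 11 summed to 5.05 to 179 CPM in dividing B cells, with 2 at 0 in all 4 libraries, and to 20.1 to 320 CPM in other B cells of 6 libraries. Their part in these values was not tested.

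ENO1 (ENSMMUG00000053002), the main enolase, was at 1382, 729, 899 and 637 CPM in the dividing B cells of libraries 3, 8, 9 and 11 and at 979, 355, 377 and 305 CPM in the other B cells. Its log2 fold change was 0.77 (SE 0.13, edgeR adjusted p = 0.00016), higher in 4 of 4 libraries. GAPDH was at 2846, 1368, 2330 and 1683 CPM against 2054, 695, 1022 and 732 CPM (log2 fold change 0.77, SE 0.13, higher in 4 of 4). PFKP, a phosphofructokinase isoform, was at 31.7, 30.5, 33.4 and 24.2 CPM against 15.4, 12.2, 17.4 and 12.8 CPM, with no overlap (0.85, SE 0.20). LDHA was at 0.45 (SE 0.16, edgeR adjusted p = 0.0397, higher in 3 of 4) and was not called without library 9 (0.30) or 11 (0.31), nor with sums of thinned cells (0.095).

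SLC2A3 was at 39.8, 79.4, 93.4 and 107 CPM in dividing B cells of libraries 3, 8, 9 and 11 and at 87.2, 151, 230 and 250.2 CPM in the others. The log2 fold change was -1.35 (SE 0.14, edgeR adjusted p = 9.18e-07), lower in 4 of 4 libraries. PFKFB3 was at -1.81 (SE 0.26, lower in 4 of 4) and HIF1A at -0.86 (SE 0.22, lower in 3 of 4, and -0.56 with an adjusted p of 0.135 without library 9). ENO2 was at -0.51 (SE 0.19, adjusted p = 0.0447), and leaving out any 1 of the 4 libraries ended its call. LDHB was at 0.60 (SE 0.24, adjusted p = 0.0606) and MYC at -0.15 (SE 0.25). When cells were first thinned to 1500 UMIs and then gated, so that all passed the gates at 1 depth, GAPDH alone was higher (0.50) and SLC2A3 alone lower (-1.19).

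**Figure D3:**
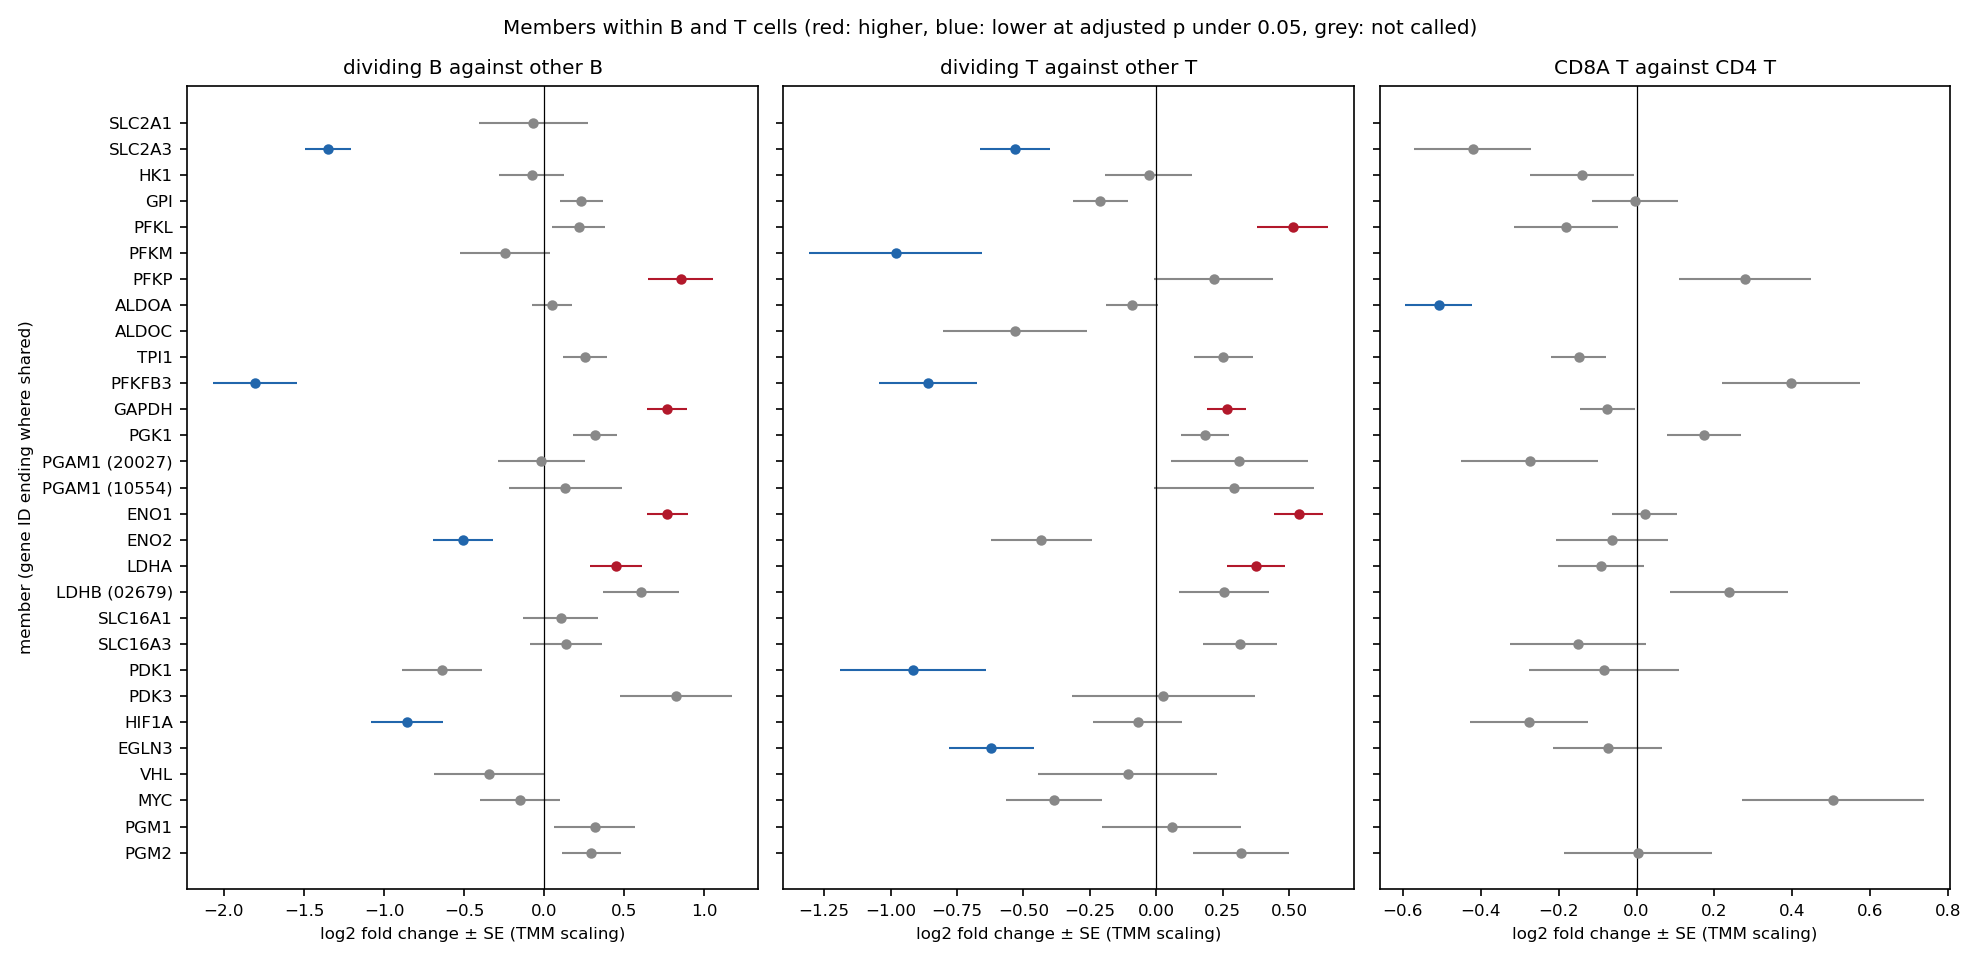
Log2 fold change of each member ID tested, with its standard error, for dividing against other B cells (4 libraries), dividing against other T cells (8 libraries) and CD8A against CD4 T cells (9 libraries), red where higher and blue where lower at an adjusted p under 0.05. In both dividing comparisons ENO1, GAPDH and LDHA lie to the right of 0 and SLC2A3 and PFKFB3 to the left, and ALDOA at -0.51 is the one called member between CD8A and CD4 T cells.

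Dividing T cells had more ENO1, PFKL, LDHA and GAPDH and less PFKFB3, SLC2A3, EGLN3, PDK1 and PFKM than other T cells. Over 8 libraries, 4 of 27 member IDs tested were higher and 5 lower, where 9.06% of the 6868 genes tested were higher and 11.5% lower (20.5% in either direction). The median was 0.027 over members and -0.068 over all genes. ENO1 was at 426, 1044 and 2482 CPM (lowest, median and highest) in dividing T cells and had a log2 fold change of 0.54 (SE 0.092, edgeR adjusted p = 0.000178), higher in 8 of 8 libraries. GAPDH was at 0.27 (SE 0.075, higher in 8 of 8), LDHA at 0.38 (SE 0.11, higher in 7 of 8) and PFKL at 0.51 (SE 0.13, higher in 7 of 8).

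Among the members that were lower, PFKFB3 was at -0.86 (SE 0.18, edgeR adjusted p = 0.0018), lower in 8 of 8 libraries. SLC2A3 was at -0.53 (SE 0.13) and EGLN3 at -0.62 (SE 0.16). PDK1 at -0.92 and PFKM at -0.98 rest on few UMIs, with mean levels of 13.8 and 5.75 CPM in dividing T cells. Leaving out 1 library ended the call of PFKL (library 2), GAPDH and LDHA (13), SLC2A3 (2), PDK1 (2 or 11) and PFKM (1, 3, 9, 11, 12 or 13). HIF1A was at -0.070 (SE 0.17), MYC at -0.38 (SE 0.18) and LDHB at 0.26 (SE 0.17), none past the threshold.

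Dividing T cells had a median of 4045 UMIs per cell over libraries and other T cells 2866. With cells thinned to 1500 UMIs before gating, no member was called in the 5 libraries and 202 dividing cells that were left (8 libraries and 604 cells before), with GAPDH at -0.12 and LDHA at -0.082, while with cells of at least 3000 UMIs alone 5 were higher and 5 lower. Of 11 myeloid markers, the dividing T cells of libraries 1, 5 and 12 held 10815, 4584 and 1781 CPM in sum with 2, 2 and 3 markers at 0, and the other 5 libraries 10.8 to 19.6 CPM with 5 to 10 at 0. Other T cells of these 3 libraries held 3611, 1010 and 1761 CPM, and those of the other 8 at most 18.1 CPM. CST3 was higher in dividing T cells at 1.83 (SE 0.32). Without libraries 1, 5 and 12, 2 members were higher and 4 lower, with GAPDH at 0.29 (edgeR adjusted p = 0.0897) and LDHA at 0.24 (adjusted p = 0.310). Sums of cells thinned to 1500 UMIs but gated on all UMIs kept the 8 libraries and 604 dividing cells, and gave 1 member higher and 0 lower. The other settings given here hold fewer cells or libraries. The part of depth and of these markers in the result was not tested apart from these settings.

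Between CD8A and CD4 T cells 1 member was called. Of 21 members tested over 9 libraries, ALDOA was lower in CD8A T cells and none was higher, where 5.43% of the 4934 genes tested were lower and 4.22% higher (9.65% in either direction). At an unadjusted p under 0.05 there were 5 members. The median was -0.075 over members and 0.019 over all genes. ALDOA (ENSMMUG00000000983), which splits the 6-carbon sugar in glycolysis, was at 289, 399 and 606 CPM (lowest, median and highest of these 9 libraries) in CD8A T cells and at 467, 640 and 1246 CPM in CD4 T cells. Its log2 fold change was -0.51 (SE 0.086, edgeR adjusted p = 0.000382), lower in 9 of 9 libraries, and its call held when any 1 library was left out. With cells thinned to 1500 UMIs before gating, over 8 libraries, it was at -0.29 (edgeR adjusted p = 0.111). In libraries 1, 5 and 12 the 11 myeloid markers summed to 7889, 3052 and 6178 CPM in CD4 T cells, with 1, 2 and 2 markers at 0, and to 1622, 53.7 and 1888 CPM in CD8A T cells, with 2, 5 and 1 at 0. In the other 6 libraries they summed to 7.52 to 18.2 CPM in CD4 and 0 to 17.7 CPM in CD8A T cells. Without libraries 1, 5 and 12 ALDOA was at -0.60 (edgeR adjusted p = 0.000888).

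SLC2A3 lay near the threshold, at -0.42 (SE 0.15, edgeR adjusted p = 0.0910), and was called without library 3 (-0.49) or 9 (-0.55). MYC was at 0.50 (SE 0.23, adjusted p = 0.212) and PFKFB3 at 0.40 (SE 0.18, adjusted p = 0.192). LDHA was at -0.092 (SE 0.11), GAPDH at -0.075 (SE 0.072), ENO1 at 0.021 (SE 0.083), HK1 at -0.14 (SE 0.13), HIF1A at -0.28 (SE 0.15) and LDHB at 0.24 (SE 0.15), none past the threshold.

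Whether the comparisons differed between the 2 barcode sets was tested for 4 of them, with a term for the difference. No member was called, with lowest adjusted p-values of 0.812 for dividing T, 0.693 for CD8A against CD4 T, 1 for B against T and 0.152 for plasma against T cells. At an unadjusted p under 0.05 there were 1, 2, 1 and 3 members. In B against T and plasma against T cells set 1 held 2 libraries, so a difference could be missed. The 3 members in plasma against T cells were MYC, PGK1 and TPI1. MYC had a median log2 ratio of -0.19 in set 1 and -3.06 in set 2 (edgeR unadjusted p = 0.003). PGK1 was at -0.22 and -1.06, and TPI1 at -1.08 and -0.43. Of all genes 0.0291%, 0.101%, 0% and 0.435% were called. DESeq2 was not run on this term.

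Levels also varied widely between libraries within a class. In non-dividing T cells LDHA was at 378, 531, 380, 1335 and 333 CPM in libraries 1, 2, 3, 5 and 6 of barcode set 1. It was at 217, 273, 749, 255, 312 and 428 CPM in libraries 8, 9, 10, 11, 12 and 13 of set 2. Library 5 stood highest, and also for ENO1 (1668 CPM), GAPDH (2792 CPM) and TPI1 (1336 CPM), while its PFKL was at 11.3 CPM against 25.3 to 75.5 CPM in libraries 1, 2 and 3. ENO2 was at 0 to 27.9 CPM in set 1 and 63.2 to 77.8 CPM in set 2, and ENO1 at 786 to 1668 CPM and 307 to 627 CPM, without overlap. LDHB (ENSMMUG00000002679), the heart form of lactate dehydrogenase, had none of the 1107082 UMIs of T cells of library 3, which allows up to 3.33 CPM (upper exact 95% bound), against 9.03 to 121 CPM in the other libraries.

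The order of the labels gives an inferred group for each library, which no file states. The 4th and 6th labels carry the same animal number, as libraries 4 and 6 share barcodes. By this inference libraries 1, 6 and 7 are host, 2 and 5 donor, 3, 8, 9 and 11 healthy, and 10, 12 and 13 combined GVHD samples. The values below are a description with no test, within a barcode set.

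In non-dividing T cells of barcode set 2, the inferred combined samples (10, 12, 13) and the inferred healthy ones (8, 9, 11) did not overlap for 11 of 24 member IDs of at least 10 CPM. The combined samples were above in 9, where 15.7% of 6305 genes were, and below in 2, where 7.52% were. LDHA was at 749, 312 and 428 CPM in libraries 10, 12 and 13 and at 217, 273 and 255 CPM in 8, 9 and 11. PGK1 was at 370, 293 and 395 CPM against 217, 253 and 259 CPM. GAPDH, at 2365, 1361 and 1715 CPM against 984, 1318 and 1102 CPM, and ENO1, at 627, 354 and 444 CPM against 333, 307 and 323 CPM, were also above, though their nearest libraries lay close. PFKL, PFKM, PFKP, VHL and PGAM1 (ENSMMUG00000020027) completed the 9.

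SLC2A3 and PDK1 lay the other way. SLC2A3 was at 167, 215 and 176 CPM in libraries 10, 12 and 13 and at 529, 544 and 698 CPM in 8, 9 and 11. PDK1 was at 13.5, 19.2 and 20.8 CPM against 35.4, 41.2 and 48.8 CPM. Within this barcode set the inferred GVHD samples were thus low for this glucose carrier while high for LDHA. The inferred healthy library 3 belongs to the other barcode set and was not in this comparison. Its LDHA lay above that of library 12, and its SLC2A3 and PDK1 lay below those of libraries 8, 9 and 11. As levels are compared here within a barcode set alone, library 3 cannot decide whether the pattern holds for all inferred healthy samples. Library 10 holds 100 such cells, and library 12 carries the myeloid markers given above.

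Smaller groups gave other counts, over the same libraries except where others are named. With fewer libraries, ranges fail to overlap more easily. The CD8A, CD4 and neither groups are parts of the non-dividing T cells above, so they are not separate from them. In CD8A T cells 4 of 25 were above (14.3% of genes) and 3 below (4.86%), with LDHA at 816, 298 and 466.2 CPM against 216, 270 and 291 CPM. The 4 above are near the share over all genes. In CD4 T cells, with libraries 12 and 13 against 8, 9 and 11, 11 of 24 were above (15.7% of genes) and none below (10.9%), with LDHA at 566 and 474 CPM against 174, 314 and 265 CPM. In T cells with neither CD8A nor CD4, 7 of 24 were above (12.7%) and 2 below (7.05%), SLC2A3 and PDK1. In dividing T cells, with 12 and 13 against 9 and 11, 12 of 24 were above (24.6%) and 2 below (15.6%), SLC2A3 and PDK1. In plasma cells, with 10, 12 and 13 against 8 and 11, ALDOA, GAPDH and LDHA were above among 12 (31.6% of genes) and none below (10.2%). The members above in plasma cells are no larger a share of those tested than that over all genes.

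In barcode set 1 the inferred donor libraries (2, 5) and host libraries (1, 6) did not overlap for 8 of 25 in non-dividing T cells, with 5 above in donor (18.5% of 5502 genes) and 3 below (13.2%). These 5 and 3 members are near the shares over all genes. GPI, ALDOC, TPI1, GAPDH and LDHA were above, and LDHA was at 531 and 1335 CPM in libraries 2 and 5 and at 378 and 333 CPM in libraries 1 and 6. PFKFB3 was at 65.6 and 14.6 CPM against 98.7 and 101 CPM, and EGLN3 at 115 and 15.6 CPM against 175 and 131 CPM. Library 6 gave 33 such cells.

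**Figure D4:**
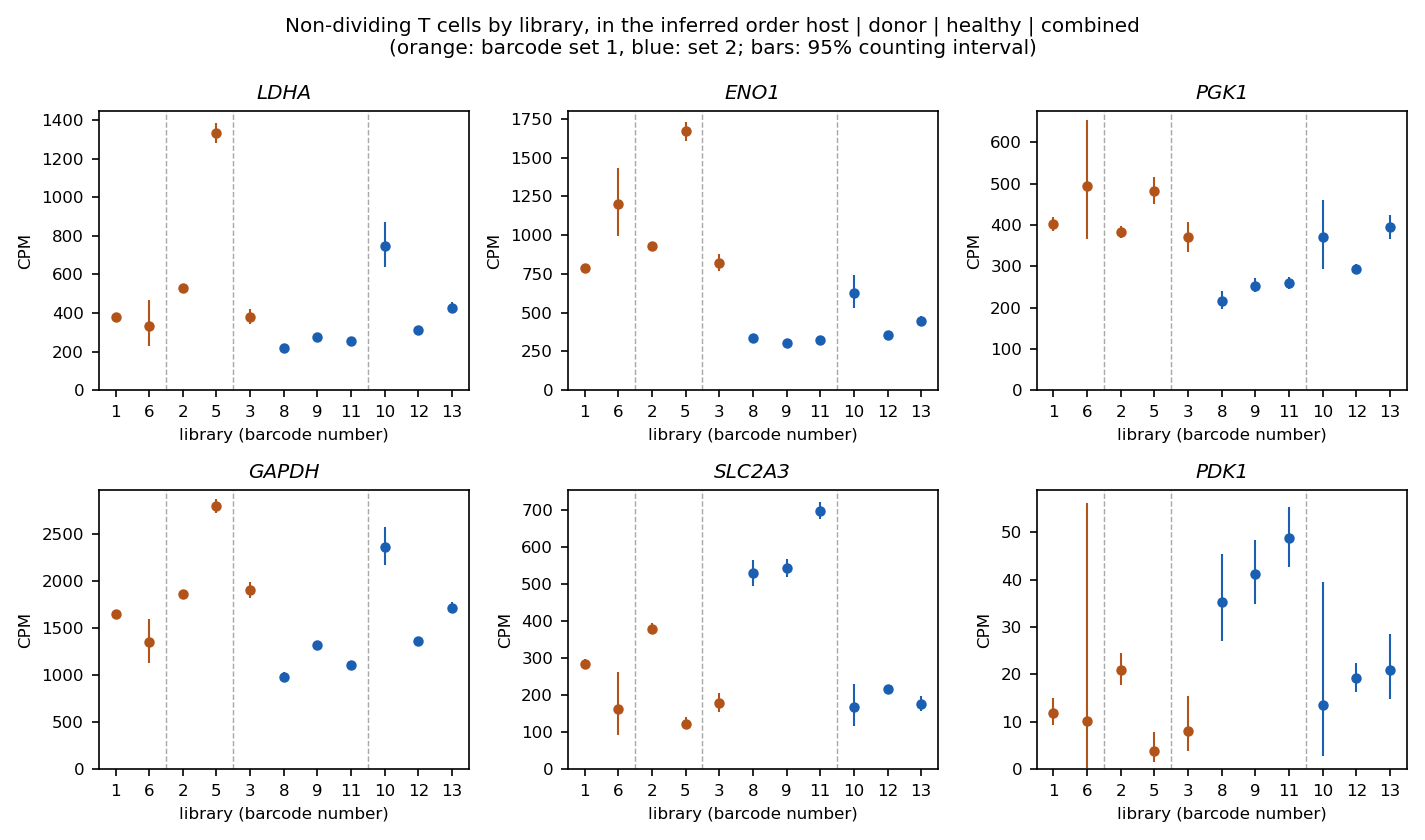
Levels of 6 members in CPM in non-dividing T cells of each library, with exact 95% intervals that cover counting error only, ordered by the inferred group (host, donor, healthy, combined) and coloured orange for barcode set 1 and blue for set 2. Library 5 lies highest for LDHA, ENO1 and GAPDH, and libraries 8, 9 and 11 lie highest for SLC2A3 and PDK1.

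Some members were near the limit of detection in every class. HK2 had a median of at most 3.31 CPM in non-dividing T, B and plasma cells, with 66, 49 and 26 UMIs, and PFKFB4 had 15, 41 and 5 UMIs. SLC2A1, the carrier most tied to lymphocyte activation, was at a median of 5.30 CPM in non-dividing T cells (0.903 to 18.1) and 6.54 CPM in B cells (3.18 to 18.0), and was tested in 2 of 6 comparisons, at 0.46 (SE 0.36) in B against T and -0.069 (SE 0.34) in dividing against other B cells. Of non-dividing T cells 1.75% held a UMI of SLC2A1 and 52.1% one of SLC2A3. PDK3, VHL and ALDOC were not called in any comparison in which they were tested.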

How the data were processed

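Raw UMI counts per gene and barcode were used as deposited by the authors, made with Cell Ranger 3.1.0 per the submitters' processing notes, which also name Seurat 3.1. No source used here gives the genome build. A deposited matrix of corrected values served only to find the cells that the authors kept. UMIs were summed per library and class, and CPM is a member's UMIs per 1000000 UMIs of the class. Libraries held 3128386 to 19655788 UMIs. Tests used edgeR 4.0.16 (filterByExpr, TMM, glmQLFit with the library as a block, R 4.3.3) and were tested on simulated data. There 72% to 90% of 4-fold changes were found. Of 2-fold changes 6% were found for plasma against B, 23% for B against T and 26% for dividing B cells. The share was 45% for dividing T and for plasma against T cells, and 57% for CD8A against CD4 T cells. A member not called may thus have changed by such an amount. Per-library log2 ratios used a prior count of 0.5. Doublets were not called, and cells of more than 1 gate were left out. Members were all accounted for, and full values went to called members, at most 12 per comparison by size of fold change, with LDHA, LDHB, SLC2A1, SLC2A3, GAPDH, HIF1A and MYC described throughout. The members, gene lists and tests were chosen with earlier results of these data known. Alternatives were RLE factors, library totals, no filter, DESeq2 1.42.0, no block, each library or barcode set left out, other gates, and thinning. Correlations among members were not computed, as libraries fall into 2 barcode sets. Planned promoter motifs were not analysed, so no sequence is shown.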

Additional observations from a re-analysis of the deposited data

Results flagged for a closer look

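In 57 sets of per-library log2 ratios of called members, 1 library stood apart from the others by Dixon's 95% limit in 6, and chance alone marks about 1 in 20. Library 5, with 33 plasma cells, gave 5 of them in plasma against T cells. PGM1 was at -5.20 there, against 0.66 to 1.20 in the other libraries, HIF1A at -7.26 (others -2.62 to -0.99) and PFKP at -6.47 (-3.14 to -1.04). PFKFB3 was at -6.47 (-3.06 to -1.64) and ENO2 at -6.30 (-0.92 to 0.10). Each of these 5 genes had 0 UMIs in the plasma cells of library 5, so the ratios depend on the prior count. In dividing against other B cells ENO2 was at -0.30 in library 9, against -0.66 to -0.60 in the other 3 libraries.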

How the results depend on the processing

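No analysis paired by replicate number was possible, because these numbers only follow the order of the labels and no file ties them to libraries. The fits hold the library as a block instead. Counts below are of members higher and lower, and the cause of each change was not tested.

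For dividing T cells (4 and 5) they were 9 and 1 by library totals, 2 and 8 with no filter, 0 and 0 with no library block, 2 and 3 with at least 50 cells, 0 and 0 in CD8A T cells alone and 0 and 0 when thinned before gating. Sums of thinned cells gave 1 and 0, barcode set 2 alone 1 and 0, set 1 alone 3 lower, DESeq2 3 lower, and leaving out libraries 1, 5 and 12 gave 2 higher. Thinned before gating, GAPDH was at -0.12 and LDHA at -0.082. For CD8A against CD4 T cells (0 and 1) no filter gave 1 and 2, set 2 alone 1 higher, library totals 3 lower, at least 50 cells 2 lower, and no block or thinning before gating 0 lower.

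For B against T cells (1 and 11) library totals gave 4 higher, no filter 3 higher, no block 0 and 3, keeping cells of more than 1 gate 3 and 17, and sums of thinned cells 0 higher. For plasma against T cells (3 and 17) library totals and thinning before gating gave 1 higher, and sums of thinned cells 1 and 11. By library totals PGM1 was at -0.52 and PFKL at -0.89. For plasma against B cells (1 and 6) RLE factors and stricter gates gave 2 higher, and thinning of both kinds or B cells without MKI67 and TOP2A 0 higher. Keeping cells of more than 1 gate gave 0 and 0, and library totals 21 lower. Between B, T and plasma cells, keeping cells of more than 1 gate can place 1 cell on both sides. For dividing B cells (4 and 4) library totals gave 9 higher, keeping cells of more than 1 gate 7 higher, no block 0 and 0, and thinning before gating 1 and 1.

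Leaving out 1 library gave 2 to 5 higher and 2 to 5 lower for dividing T cells, 0 to 0 and 1 to 2 for CD8A against CD4, 1 to 2 and 7 to 12 for B against T, 3 to 4 and 16 to 18 for plasma against T, 1 to 1 and 6 to 7 for plasma against B, and 3 to 6 and 2 to 4 for dividing B cells. Of 1600 values of 79 member results under alternatives, 1386 kept direction and side of the threshold, 171 lost the call, 39 gained one and 4 changed sign. Library totals moved the median of all genes to 0.15 for dividing T, 0.18 for B against T and 0.18 for dividing B cells. HK2 and PFKFB4 were too low to test in any comparison with the filter.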

Other observations

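Genes outside the 32 that feed or drain pyruvate were also read, from lists chosen with earlier results known. MPC1, a subunit of the mitochondrial pyruvate carrier, was higher in plasma than in T cells at a log2 fold change of 1.81 (SE 0.14) and than in B cells at 1.67 (SE 0.23). It was also higher in dividing than in other B cells at 0.74 (SE 0.15) and in dividing than in other T cells at 0.50 (SE 0.13). Of 33 other genes of glycolysis and pyruvate, 11 were tested in plasma against T cells, and 7 were higher and 2 lower, where 26.6% of all genes tested were higher and 32.3% lower. Among them were PDHB at 1.02 and PDHA1 at 0.91 (both higher), subunits of pyruvate dehydrogenase. EMB, a partner of lactate carriers, was at -4.97 there.

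TXNIP, which curbs glucose uptake, was lower in dividing than in other B cells at -1.76 (SE 0.21) and in dividing than in other T cells at -0.81 (SE 0.13). Of 7 pentose phosphate genes 6 were tested in each comparison given here. PGD and TKT were higher and none lower in dividing B cells (0.78 and 0.48, where 16.8% of all genes were higher) and in dividing T cells (0.62 and 0.37, where 9.06% were). In plasma against T cells PGD was higher (1.02) and PGLS, RPIA and TKT lower (-1.07, -0.97 and -0.63). The list was not tested as a whole.

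In B against T cells 3 of 16 other genes of glycolysis and pyruvate were higher and 5 lower, and 3 of 19 hypoxia pathway genes higher and 6 lower, where 18% of all genes were higher and 20% lower. Those with the largest fold changes in the first list were SLC2A6 (2.34), PGAM2 (1.98), PDK2 (-1.97) and SLC16A7 (-1.42), and in the second CA9 (2.48), MXI1 (-2.25), NDRG1 (-1.59) and DDIT4 (-1.20).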
